A study of Homo sapiens with 6 samples.

Results

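The S100 genes measured here were 10 members of a family of small calcium-binding proteins: S100A2, S100A3, S100A4, S100A6, S100A8, S100A9, S100A10, S100A11, S100A13 and S100A16. They were listed by gene symbol with earlier results of these data known, so the choice was not blind to the data. One of these symbols was the only symbol of 14 probe sets. For each gene the probe set with the highest mean deposited signal over the 6 arrays was taken, and the remaining 4 probe sets served as checks. All 10 genes passed the filter on low signals, among 13842 genes that did so of 19775 on the array. RNA came from U87-2M1 cells, a human glioma subline recovered from lung in an animal metastasis assay and then grown in culture under hypoxia. The cells were at passage 4 and had been transduced with a baculovirus, an insect virus used to carry genes into mammalian cells. In 3 arrays the virus carried a decoy for miR-10b, a transcript meant to bind that microRNA and keep it from its targets, and in 3 arrays it carried a control decoy. The labels give neither the share of cells transduced nor the origin of the replicates. If all arrays of a group came from 1 culture, the p-values reflect technical spread alone.

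S100 proteins are small and mostly pair into dimers. Each chain carries 2 calcium-binding loops of the EF-hand type, and calcium opens a surface that grips a partner protein. The annexins, which bind membranes, nonmuscle myosin and p53 are among their partners inside cells. Some members are also released and act on receptors such as AGER (the receptor for advanced glycation end products) and TLR4. In gliomas and other tumours several members are studied for their links to invasion and inflammation.

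Values below are signals after quantile normalisation, which gives the 6 arrays 1 common distribution, and differences are on the scale log2(signal + 7), miR-10b decoy minus control decoy. The arrays needed this step because the mean deposited signal, after trimming 2% at each end, was 155 to 163 on the miR-10b decoy arrays and 159, 161 and 192 on control decoy replicates 1, 2 and 3. A gene is called higher or lower where limma's two-sided test gave an adjusted p under 0.05, adjusted over all 13842 genes. By that rule 2299 genes (16.6%) were higher and 2398 (17.3%) lower in miR-10b decoy cells, so higher genes made up 48.9% of the calls, against 29.9% with signals as deposited and 62.2% with arrays centred on their median. The median difference over all genes was -0.02, and it was -0.14 with signals as deposited. The 3'/5' signal ratio of actin, a sign of RNA integrity, was 8.54 ± 1.77 with the miR-10b decoy and 5.73 ± 0.47 with the control decoy (SD, n = 3 each), and every miR-10b decoy array lay above every control decoy array. That of GAPDH was 0.943 ± 0.007 and 0.945 ± 0.019, in the same order. The ratio of actin moved with the groups of every comparison below, and its part in the results was not tested. Transcript per cell and the share of cells that make the transcript cannot be told apart in such bulk RNA.

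In miR-10b decoy cells 3 of the 10 S100 genes were lower (S100A4, S100A16 and S100A3), 2 were higher (S100A2 and S100A6) and 5 did not pass. The background was 17.3% lower, 16.6% higher and 33.9% in either direction, so 3 and 2 of 10 genes give no result about the family as a whole. The arrays of the groups did not overlap for 5 of the 10 genes, against 46.4% of all genes tested (22.4% with the miR-10b decoy arrays all above and 24% all below). The median difference of the 10 genes was 0.02, beside -0.02 over all genes. The family thus had no common direction, and the values of single genes carry the comparison.

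**Figure D1:**
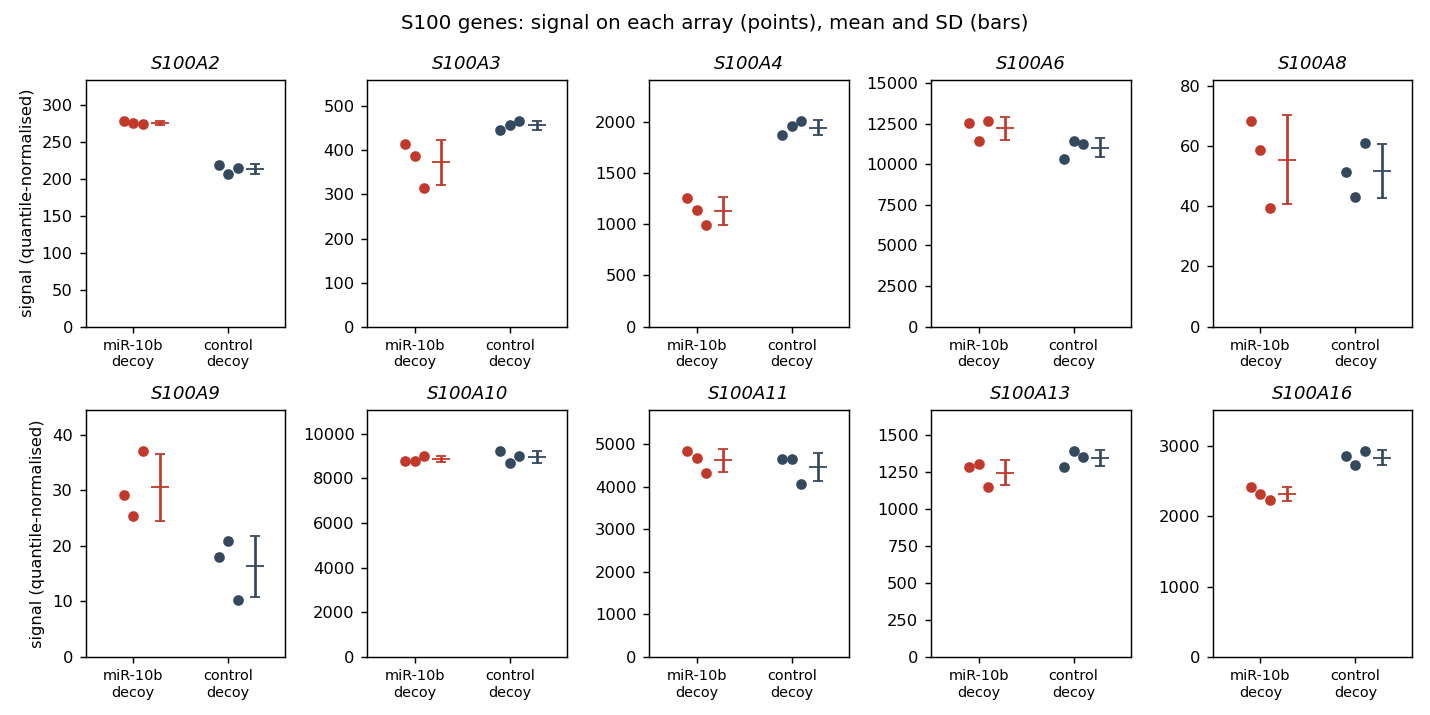
Quantile-normalised signal of the 10 S100 genes on each array, with the miR-10b decoy on the left and the control decoy on the right of each panel; points are arrays, the horizontal dash is the mean and the bar its SD (n = 3 each), and every axis starts at 0. The groups stand clear of each other for S100A2, S100A3, S100A4, S100A9 and S100A16, with S100A4 at 1128 ± 133 against 1943 ± 71.6.

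S100A4, also called metastasin, binds the heavy chain of nonmuscle myosin and is linked to cell motility and metastasis. Its signals were 1256, 1138 and 990 with the miR-10b decoy and 1867, 1954 and 2009 with the control decoy. Every miR-10b decoy array lay well below every control decoy array. The log2 difference was -0.79 (SE 0.08, 95% interval -0.96 to -0.62, limma adjusted p = 2.2e-05), which makes the signal 1.73-fold lower with the miR-10b decoy. Of the 13842 genes tested, 359 had a more negative difference. S100A4 was lower under all 18 alternatives, with differences between -0.90 and -0.70 and adjusted p no higher than 0.0189. Its only probe set carries a suffix that marks possible cross-hybridisation with other transcripts.

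S100A16, a widely expressed member of the family, had signals of 2421, 2312 and 2229 with the miR-10b decoy and 2853, 2728 and 2928 with the control decoy. The groups did not overlap, and the gap was small beside the level. The difference was -0.29 (SE 0.05, adjusted p = 0.00110), or 1.22-fold lower, and it was called under all 18 alternatives (adjusted p no higher than 0.0281), with -0.45 for signals as deposited.

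S100A3, a cysteine-rich protein known from the cuticle of hair, had signals of 415, 388 and 315 with the miR-10b decoy and 448, 457 and 467 with the control decoy. Replicate 3 was the lowest of the miR-10b decoy arrays, and the control decoy arrays lay close together. The difference was -0.30 (SE 0.10, 95% interval -0.51 to -0.08, adjusted p = 0.0353), or 1.23-fold lower. This call held under 7 of 18 alternatives, with adjusted p from 0.0165 to 0.159. It ended without any 1 array other than miR-10b decoy replicate 1: adjusted p was 0.104 and the difference -0.18 without miR-10b decoy replicate 3, 0.0550 without replicate 2, and 0.0646, 0.0874 and 0.0885 without control decoy replicates 1, 2 and 3.

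S100A2, found in the nuclei of squamous epithelial cells and a known target and partner of p53, was higher with the miR-10b decoy. Its signals were 278, 274 and 273 with the miR-10b decoy and 219, 206 and 214 with the control decoy. The arrays of each group lay close together, and the groups did not overlap. The difference was 0.36 (SE 0.08, 95% interval 0.18 to 0.54, adjusted p = 0.00602), or 1.28-fold higher. It was called under 17 of 18 alternatives and lost with signals as deposited (0.27, adjusted p = 0.155, in a range of 0.00160 to 0.155).

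S100A6, or calcyclin, had the brightest probe set of the 10 genes, with 19 probe sets brighter on the whole array. Its signals were 12546, 11420 and 12681 with the miR-10b decoy and 10354, 11451 and 11284 with the control decoy, so that the groups overlapped. The difference was 0.15 (SE 0.05, adjusted p = 0.0359), or 1.11-fold higher. The call held under 6 of 18 alternatives (adjusted p from 0.0124 to 0.917). It ended when control decoy replicate 1 was left out (adjusted p = 0.130), or miR-10b decoy replicate 1 (0.123) or 3 (0.126). With signals as deposited the sign turned to -0.02, with means of 11458 ± 627 with the miR-10b decoy and 11713 ± 1683 with the control decoy (SD, n = 3 each). A dimmer S100A6 probe set had signals of 85.9, 65.1 and 73.9 with the miR-10b decoy and 56.8, 57.8 and 66.2 with the control decoy (difference 0.28, SE 0.15, adjusted p = 0.222 over 28764 probe sets).

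S100A6, S100A4, S100A3 and S100A2 follow each other along chromosome 1, with S100A5 between S100A6 and S100A4. S100A5 was under the filter level of 15.6 on all 6 arrays. Their promoters are shown because these near neighbours carried calls in both directions. Each window runs from 250 bases before to 50 bases after the start site on the minus strand of GRCh38.p14, from RefSeq, 5′ to 3′, and for S100A2 the more upstream of 2 start sites is shown. Capitals mark matches on either strand to TATAAA (the TATA box), CCAAT (the CCAAT box), GGGCGG (the GC box), TGANTCA (the core of AP-1 sites) and CACCTG (an E-box).
S100A6 at chr1:153535942-153536241: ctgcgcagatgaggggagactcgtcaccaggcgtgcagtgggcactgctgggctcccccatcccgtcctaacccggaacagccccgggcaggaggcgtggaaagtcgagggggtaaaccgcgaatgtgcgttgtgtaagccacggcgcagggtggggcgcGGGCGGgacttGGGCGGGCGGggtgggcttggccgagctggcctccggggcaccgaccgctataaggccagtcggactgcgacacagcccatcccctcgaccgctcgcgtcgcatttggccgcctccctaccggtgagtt
S100A4 at chr1:153545757-153546056: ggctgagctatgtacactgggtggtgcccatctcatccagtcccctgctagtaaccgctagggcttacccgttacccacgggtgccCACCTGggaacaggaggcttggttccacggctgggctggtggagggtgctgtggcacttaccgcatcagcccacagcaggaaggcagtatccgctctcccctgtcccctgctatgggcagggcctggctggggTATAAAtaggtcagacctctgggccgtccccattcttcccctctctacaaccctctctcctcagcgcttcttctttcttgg
S100A3 at chr1:153549209-153549508: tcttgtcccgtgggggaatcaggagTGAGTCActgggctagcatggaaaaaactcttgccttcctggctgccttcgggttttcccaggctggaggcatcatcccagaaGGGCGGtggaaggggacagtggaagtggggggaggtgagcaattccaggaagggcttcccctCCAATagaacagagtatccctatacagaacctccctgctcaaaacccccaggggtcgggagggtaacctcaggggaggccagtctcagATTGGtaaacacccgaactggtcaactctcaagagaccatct
S100A2 at chr1:153565795-153566094: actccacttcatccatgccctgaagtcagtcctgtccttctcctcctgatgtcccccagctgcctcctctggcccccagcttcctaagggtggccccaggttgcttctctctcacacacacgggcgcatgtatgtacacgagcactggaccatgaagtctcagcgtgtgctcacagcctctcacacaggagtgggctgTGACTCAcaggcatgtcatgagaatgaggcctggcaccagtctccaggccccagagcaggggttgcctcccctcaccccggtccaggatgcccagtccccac
Counted with the start site as 0, the S100A4 window held TATAAA from position -31 and CACCTG from -164. The S100A3 window held TGANTCA from -225, GGGCGG from -142 and CCAAT from -80 and from 8. In the S100A6 window GGGCGG began at -90, -79 and -75, the last pair overlapping, and in the S100A2 window TGANTCA began at -52. No match of one motif overlapped one of another. Among all 35116 windows of that length in the table, TATAAA was in 11.5%, CCAAT in 34.6%, GGGCGG in 45.0%, TGANTCA in 7.71% and CACCTG in 20.6%. Of the 10 S100 genes, whose 16 windows were all searched, 4 had TATAAA, 4 had CCAAT, 7 had GGGCGG, 2 had TGANTCA and 5 had CACCTG in at least 1 window. Counted by window, as the shares above are, TATAAA was in 5 of the 16, CCAAT in 4, GGGCGG in 7, TGANTCA in 2 and CACCTG in 8, and windows of 1 gene can overlap. The 4 genes with TATAAA were S100A4, which was lower, and S100A8, S100A9 and S100A13, which did not pass. TGANTCA was in windows of S100A2, which was higher, and S100A3, which was lower. A match only describes the letters of the window.

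**Figure D2:**
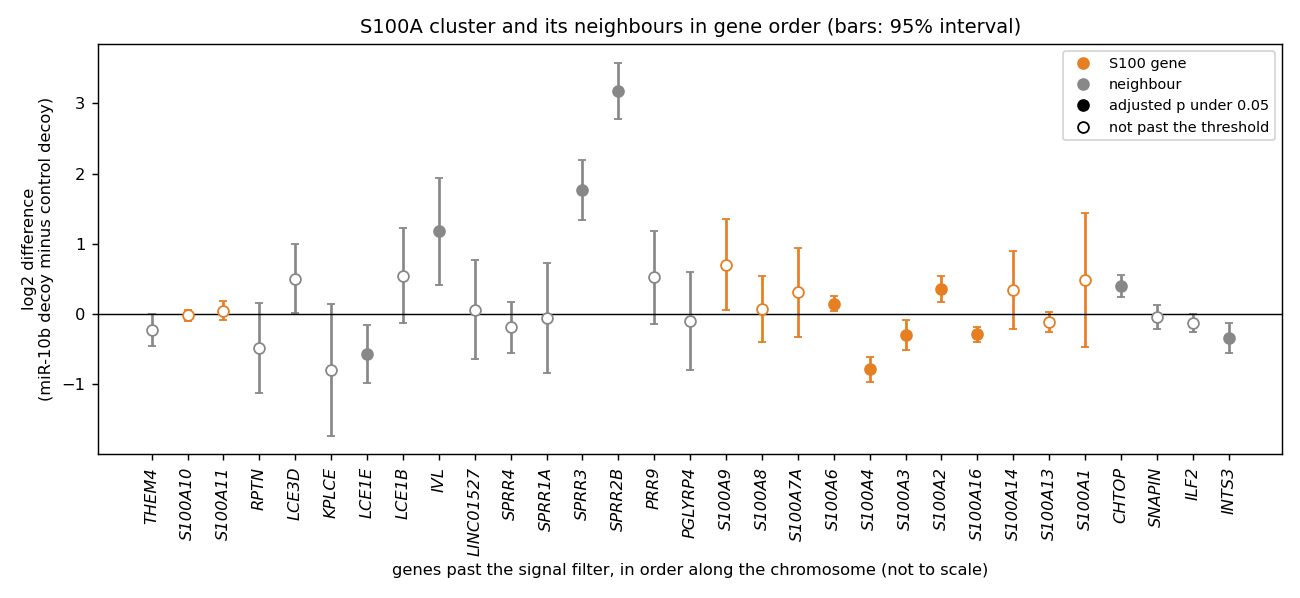
Log2 difference (miR-10b decoy minus control decoy) of the genes past the signal filter, in their order along chromosome 1 around the S100A genes; bars are 95% intervals, filled points have an adjusted p under 0.05 and open points do not. S100 genes (orange) lie between -0.79 for S100A4 and 0.70 for S100A9, while SPRR2B among the neighbours (grey) reaches 3.18. The SPRR2B probe set may cross-hybridise with other transcripts.

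All 10 S100 genes lie in 1 stretch of chromosome 1 that also holds the genes of the cornified envelope, the cross-linked shell of squamous cells. From 10 genes before the first to 10 genes after the last S100 gene, 94 other genes are annotated there, 36 had a probe set of their own and 18 passed the filter. Of these 18, 4 were higher and 2 lower in miR-10b decoy cells, with a median difference of -0.05. These counts are near the background of 16.6% higher and 17.3% lower and show nothing particular to the stretch. SPRR2B, a cornified envelope protein, was higher by 3.18 (SE 0.18), and SPRR3 of the same family by 1.77 (SE 0.20), or 0.97 for the mean of its probe sets. Both probe sets carry a suffix for possible cross-hybridisation. SPRR2A, SPRR2D, SPRR2E and SPRR2F had no probe set of their own, so the signal cannot be assigned to SPRR2B alone. CHTOP, which serves mRNA export and is the next gene after S100A1, had signals of 802, 766 and 774 with the miR-10b decoy and 555, 643 and 570 with the control decoy (difference 0.40, SE 0.07, adjusted p = 0.00130). The mean of the CHTOP probe sets gave 0.21. That CHTOP call was lost with signals as deposited (0.32, adjusted p = 0.0557, in a range of 4.7e-04 to 0.0557). IVL, also of the envelope, was the fourth higher gene (adjusted p = 0.0218). It passed the filter through the miR-10b decoy arrays, with signals of 31.4, 27.3 and 37.0 with the miR-10b decoy and 11.4, 4.09 and 17.6 with the control decoy, where 2 of 3 arrays were under the filter level. Its difference was 1.63 with an offset of 1 and 0.63 with an offset of 28, so its size depends on the offset. The IVL call held under 13 of 17 alternatives and ended without control decoy replicate 2 (0.0623), miR-10b decoy replicate 1 (0.0589) or replicate 3 (0.0820). LCE1E, of the late cornified envelope family, was lower at -0.57 (SE 0.19, adjusted p = 0.0368). It held under 9 of 18 alternatives and ended without control decoy replicates 2 (0.109) and 3 (0.115) and miR-10b decoy replicates 1 (0.132) and 3 (0.0950). INTS3 was lower at -0.34 (adjusted p = 0.0175), but the mean of its probe sets gave 0.38. The INTS3 call also ended without control decoy replicate 1 (adjusted p = 0.0667) and on leaving out miR-10b decoy replicate 2 (0.0517) or 3 (0.0595), in a range of 0.00862 to 0.101.

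S100A10 and S100A11 are the members best known as partners of annexins. S100A10, or p11, does not bind calcium and forms a complex with annexin A2 that holds plasminogen at the cell surface. Its signals were 8784, 8784 and 9015 with the miR-10b decoy and 9223, 8668 and 9002 with the control decoy. The groups overlapped, with a difference of -0.02 (95% interval -0.10 to 0.06, adjusted p = 0.763). The other S100A10 probe set read 205, 162 and 182 with the miR-10b decoy and 234, 229 and 232 with the control decoy, with no overlap. It was called lower over 28764 probe sets (difference -0.33, SE 0.11, adjusted p = 0.0388), where the background was 12.6% lower and 12.3% higher. This call held under 7 of 16 alternatives (adjusted p from 0.0220 to 0.150). It ended without miR-10b decoy replicate 2 (0.150) or 3 (0.0816) and without control decoy replicate 1 (0.0896), 2 (0.0896) or 3 (0.0769). Both probe sets had negative differences, and whether they differed from each other was not tested.

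S100A11, a partner of annexin A1, had signals of 4843, 4690 and 4333 with the miR-10b decoy and 4647, 4664 and 4079 with the control decoy. The groups overlapped, and the difference of 0.05 (95% interval -0.08 to 0.18, adjusted p = 0.551) did not pass.

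Among 9 annexins tested, 2 were higher and 2 lower, with a median difference of -0.09 beside -0.02 for all genes. The background was 16.6% higher and 17.3% lower. ANXA1, the S100A11 partner, had signals of 10548, 10506 and 10439 with the miR-10b decoy and 9358, 9384 and 9078 with the control decoy (difference 0.18, SE 0.03, adjusted p = 0.00130). With signals as deposited its difference was 0.03 (adjusted p = 0.880). ANXA2, the S100A10 partner, averaged 7964 ± 199 with the miR-10b decoy and 8507 ± 353 with the control decoy (SD, n = 3 each), a difference of -0.09 that did not pass (adjusted p = 0.0912). It passed without control decoy replicate 3, on quantile-normalised signals (adjusted p = 0.0469) and on signals as deposited (0.0351). ANXA11, which binds S100A6, had a difference of -0.09 (adjusted p = 0.458). The other calls were ANXA6, lower at -0.40 (adjusted p = 0.00262, and 0.152 with the mean of its probe sets), ANXA7, lower at -0.22 (0.0181), and ANXA10, higher at 0.51 (0.0498). Leaving out 1 array ended the call of ANXA7 in 3 of 6 cases (control decoy replicates 1 and 2, miR-10b decoy replicate 1, adjusted p from 0.0530 to 0.0682) and that of ANXA10 in all cases but control decoy replicate 3 (0.0664 to 0.148).

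The surface system that S100A10 serves was also listed. Of 5 genes of plasminogen activation tested, 3 were lower and 1 was higher in miR-10b decoy cells. Among all genes 17.3% were lower and 16.6% higher. The median difference was -0.19 for the list and -0.02 for all genes, and 5 genes are too few for a statement about the list. The activators PLAU (urokinase) and PLAT (tissue type) had differences of -0.20 (SE 0.03) and -0.41 (SE 0.11), and ENO1, a glycolytic enzyme that also binds plasminogen, had -0.19 (SE 0.04, and -0.11 with an adjusted p of 0.449 for the mean of its probe sets). PLAUR, the urokinase receptor, was higher at 0.22 (SE 0.05), a call lost with signals as deposited (adjusted p = 0.642, in a range of 0.00469 to 0.642). The PLAT call ended without control decoy replicate 2 (adjusted p = 0.0525).

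S100A13 takes part in the release of FGF1 and IL1A, which leave cells without a signal peptide. Its signals were 1286, 1301 and 1148 with the miR-10b decoy and 1284, 1390 and 1349 with the control decoy. The groups overlapped, and the difference of -0.11 (95% interval -0.25 to 0.03, adjusted p = 0.226) did not pass. A dim S100A13 probe set read 29.4, 20.6 and 38.8 with the miR-10b decoy and 52.4, 21.4 and 37.0 with the control decoy (adjusted p = 0.632). Of its cargo, IL1A was lower, at 277, 309 and 353 with the miR-10b decoy and 492, 441 and 518 with the control decoy (difference -0.62, SE 0.10), but the mean of the IL1A probe sets gave -0.02 (adjusted p = 0.956). FGF1 was dim and did not pass, at 32.3 ± 8.50 with the miR-10b decoy and 22.7 ± 5.60 with the control decoy (SD, n = 3 each, adjusted p = 0.292).

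**Figure D3:**
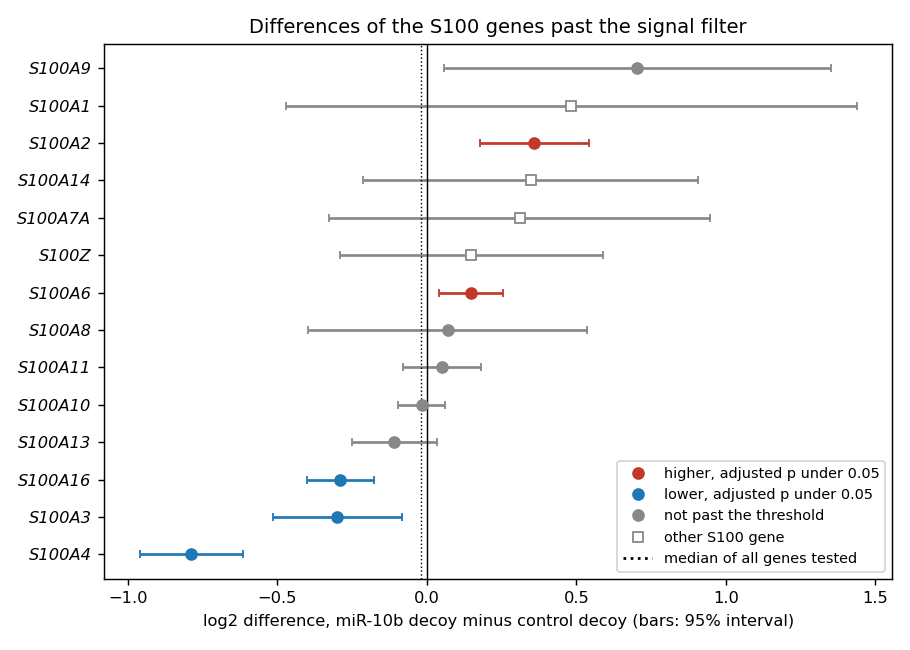
Log2 difference (miR-10b decoy minus control decoy) with its 95% interval for the 10 S100 genes (filled circles) and 4 other S100 genes past the filter (open squares); the dotted line is the median of all genes tested, -0.02. S100A4, S100A3 and S100A16 lie below 0, S100A2 and S100A6 above it, and the dim genes, such as S100A9 and S100A1, have wide intervals.

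S100A8 and S100A9 pair into calprotectin, which neutrophils make in bulk and which acts on TLR4 and AGER. S100A8 read 68.5, 58.8 and 39.4 with the miR-10b decoy and 51.6, 43.0 and 61.1 with the control decoy, so the groups overlapped. The difference was 0.07 (95% interval -0.40 to 0.54, adjusted p = 0.833), an interval that holds changes of either sign. Its brighter probe set carries the suffix for possible cross-hybridisation, and the other lay at signals of 0.625, 0.930 and 1.02 with the miR-10b decoy and 1.13, 3.98 and 0.557 with the control decoy, all under the filter level.

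S100A9 was the dimmest of the 10 genes. Its signals were 29.2, 25.3 and 37.0 with the miR-10b decoy and 17.9, 20.8 and 10.2 with the control decoy, with control decoy replicate 3 under the filter level. The groups did not overlap, but the difference of 0.70 (SE 0.30, 95% interval 0.06 to 1.35) did not pass (adjusted p = 0.0888) and was called under 0 of 17 alternatives (differences from 0.40 to 0.90, adjusted p from 0.0555 to 0.331). S100A12, the third granulocyte member, was under the filter level on 2 of 3 miR-10b decoy arrays and on all 3 control decoy arrays.

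Of 9 myeloid markers, 3 were tested and 0 called at an adjusted p under 0.05 or an unadjusted p under 0.05. Among all 13842 genes 33.9% were called in either direction, and 6007 had an unadjusted limma p under 0.05. So 3 dim genes are too few for a statement about the list. The summed signal of the 9 markers was 99.1 to 161 with the miR-10b decoy and 91.7 to 166 with the control decoy. Of these markers PTPRC, LYZ, ELANE and CD14 were under the filter level on all 6 arrays. CSF1R was above it on all 6, at 50.2 ± 14.6 with the miR-10b decoy and 52.3 ± 13.4 with the control decoy (SD, n = 3 each). The other 2 tested were ITGAM, with means of 22.6 and 30.5 in the same order, and MPO, with 14.8 and 20.7. MPO was under the filter level on 2 of 3 miR-10b decoy arrays, and ITGAM on 1 of 3 control decoy arrays. FCGR3B and TYROBP were under the level on 2 of 3 miR-10b decoy arrays and all 3 control decoy arrays. For squamous keratinocytes, in which S100A2, S100A8 and S100A9 are also made, 5 of 9 markers on the array were tested. IVL was higher, KRT1, KRT10 (-0.35) and SFN (-0.50) were lower, and KRT5 did not pass (-0.75, adjusted p = 0.306). Among all genes 16.6% were higher and 17.3% lower, and 5 genes are too few for a statement about the list. The summed signal of the markers was 2827 to 2990 with the miR-10b decoy and 3370 to 3891 with the control decoy. Most of it was KRT10, with means of 2665 and 3408 in the same order, so the sum mainly shows that gene. KRT16 did not pass the filter and was not tested. Its miR-10b decoy arrays all lay above its control decoy arrays, with means of 14.8 and 1.46. KRT1 passed the filter through the control decoy arrays only, with signals of 2.15, 14.8 and 4.07 with the miR-10b decoy, all under the filter level, and a mean of 27.6 ± 9.35 with the control decoy (SD, n = 3). Its difference was -2.12 with an offset of 1 and -0.67 with an offset of 28, so its size is not given as a measurement. The SFN call ended with the mean of its probe sets (adjusted p = 0.287), that of KRT10 did likewise (-0.13, adjusted p = 0.0562) and with per-gene variances (0.0590), and that of KRT1 ended without miR-10b decoy replicate 1 (0.0703) or 3 (0.0644). KRT14 and LORICRIN were under the filter level on all 6 arrays. DSG3 was under it on all 3 miR-10b decoy arrays and 2 of 3 control decoy arrays and was not tested. The part of these markers in the S100A2, S100A8 and S100A9 values was not tested.

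The receptors of released S100 proteins were mixed, with 2 higher and 2 lower of 7 tested and a median difference of -0.05. Among all genes 16.6% were higher and 17.3% lower. MCAM, an adhesion molecule reported to bind S100A8 and S100A9, read 710, 641 and 622 with the miR-10b decoy and 310, 352 and 357 with the control decoy (difference 0.94, SE 0.08, adjusted p = 1.0e-05). The mean of the MCAM probe sets gave 0.19 (adjusted p = 0.455, in a range of 9.3e-08 to 0.455). NPTN, a reported S100A8 receptor, read 3681, 3564 and 3818 with the miR-10b decoy and 4574, 4940 and 4731 with the control decoy (difference -0.36, SE 0.05, adjusted p = 1.2e-04). That call held under all 18 alternatives. LY96, the partner of TLR4, was higher at 0.20 (adjusted p = 0.0115, lost without control decoy replicate 2 at 0.0514 and with signals as deposited at 0.657). ALCAM, an S100B receptor, was lower at -0.22 (adjusted p = 0.0135, lost without control decoy replicate 2 at 0.0666 and with array median centring at 0.0856). The calls of LY96 and ALCAM each held under 14 of 18 alternatives. The mean of the ALCAM probe sets gave -0.47. TLR4 and AGER were dim and did not pass, and AGER was under the filter level on all 3 control decoy arrays. TLR4 averaged 39.2 ± 6.87 with the miR-10b decoy and 48.4 ± 7.87 with the control decoy, and AGER 18.2 ± 11.5 with the miR-10b decoy and 13.2 ± 1.56 with the control decoy (SD, n = 3 each).

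Inside the cell, 15 other reported partners were tested, with 3 higher and 2 lower and a median difference of 0.07. These counts lie near the background of 16.6% higher and 17.3% lower. PPFIBP1, or liprin beta 1, which binds S100A4, read 266, 294 and 249 with the miR-10b decoy and 602, 544 and 470 with the control decoy (difference -0.98, SE 0.10, adjusted p = 3.1e-05). The groups were far apart on this probe set, but the mean of all PPFIBP1 probe sets gave -0.30 (adjusted p = 0.158, in a range of 9.5e-11 to 0.158). MYH9, the myosin heavy chain that S100A4 binds, averaged 1115 ± 70.9 with the miR-10b decoy and 1065 ± 94.9 with the control decoy (SD, n = 3 each) and did not pass (difference 0.07, adjusted p = 0.543). MDM2, which degrades p53 and binds several S100 proteins, was higher at 0.74 (SE 0.07) and under all 18 alternatives, with a smaller difference of 0.42 for the mean of its probe sets. CACYBP, the calcyclin-binding protein that S100A6 binds, was higher at 0.19 (adjusted p = 0.0361) and SUGT1, a chaperone partner of S100A6, at 0.15 (adjusted p = 0.0382). The SUGT1 call held under 8 of 18 alternatives, and the mean of its probe sets gave -0.09 (adjusted p = 0.489). It ended without control decoy replicate 1 (0.120) or 2 (0.0973) and without miR-10b decoy replicate 1 (0.0799) or 2 (0.111). The CACYBP call held under 7 of 18 alternatives, and of the 6 arrays it outlasted the loss of miR-10b decoy replicate 2 alone, the others giving an adjusted p from 0.0570 to 0.112. AHNAK, a scaffold bound by the S100A10 complex, had a difference of 0.06 (adjusted p = 0.494).

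**Figure D4:**
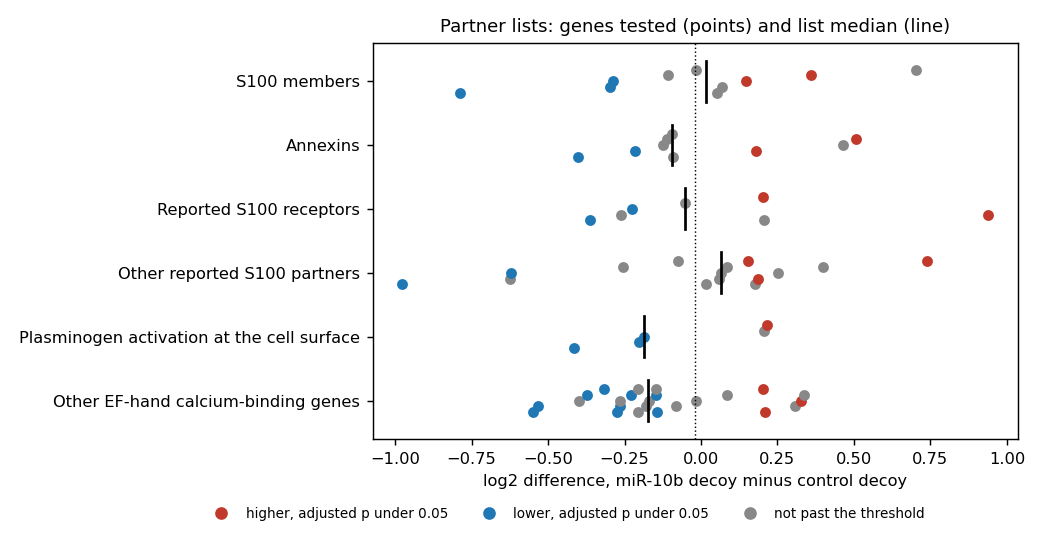
Log2 difference (miR-10b decoy minus control decoy) of each gene tested in the S100 members and in 5 lists of partners or related genes; red points were higher, blue points lower and grey points not past an adjusted p of 0.05, black lines are list medians and the dotted line is the median of all genes, -0.02. Calls of both directions occur in every list, and the list medians lie between -0.19 and 0.07.

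The remaining S100 genes were mostly near background. Of 10 others on the array, 4 passed the filter (S100A1, S100A7A, S100A14 and S100Z) and 0 were called, also at an unadjusted p under 0.05. Among all 13842 genes 33.9% were called in either direction, and 6007 had an unadjusted limma p under 0.05. These 4 mostly dim genes are too few for a statement about the remaining S100 genes. S100A14 averaged 33.7 ± 3.11 with the miR-10b decoy and 25.6 ± 7.65 with the control decoy, and S100A1 averaged 32.6 ± 23.7 with the miR-10b decoy and 17.5 ± 2.60 with the control decoy (SD, n = 3 each). Without miR-10b decoy replicate 1, the lowest of the S100A1 arrays at 8.63, S100A1 passed at 1.04 (adjusted p = 0.0286). S100B, a glial member, S100A5, S100G and S100P were under the filter level on all 6 arrays. S100A7, another epithelial member, was under it on 5 of 6 arrays. Of the listed glioma and glial markers, GFAP was also under the filter level on all 6 arrays. VIM (9932 ± 100 with the miR-10b decoy and 9937 ± 102 with the control decoy, SD, n = 3 each), CD44 and EGFR were bright. SOX2 was dim, at 15.5 ± 5.11 with the miR-10b decoy and 24.1 ± 9.90 with the control decoy. OLIG2 did not pass the filter. It read 19.7, 19.7 and 29.9 with the miR-10b decoy and 0.806, 5.23 and 7.80 with the control decoy.

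**Figure D5:**
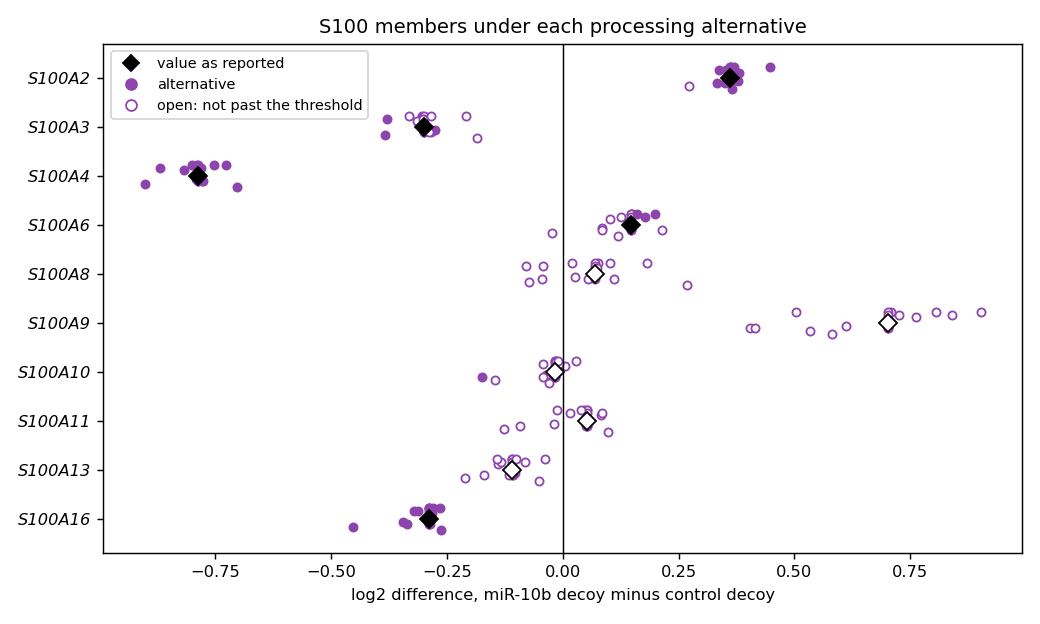
Log2 difference (miR-10b decoy minus control decoy) of the 10 S100 genes as reported (black diamonds) and under each processing alternative (purple circles); filled symbols have an adjusted p under 0.05 and open ones do not. S100A4 and S100A16 stay filled and below 0 throughout, while S100A6, S100A8, S100A10 and S100A11 have values on both sides of 0.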

How the data were processed

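Per the submitters' processing notes, the authors deposited MAS5 values, linear signal intensities for 54675 probe sets on each of 6 arrays. The sources used here do not give MAS5's version, scaling target or detection calls. The number of arrays limits the precision. Group and replicate number came from each array's title. Probe sets with 1 symbol in the platform annotation were used (41091), and all 10 S100 symbols matched a RefSeq gene by Entrez identifier (GRCh38.p14). Suffixes for possible cross-hybridisation also marked the probe sets of CHTOP, LCE1E, MCAM, PPFIBP1, CACYBP and SUGT1, among others. Signals were quantile-normalised, offset by 7 and turned into log2. Genes with a mean signal under its 30th percentile (15.6) were left out. Groups were compared with limma 3.58.1 (R 4.3.3; lmFit, eBayes with an intensity trend) and Benjamini-Hochberg adjustment over 13842 genes. The median prior degrees of freedom were 7.67, so p-values rest in part on variance shared across genes. Intervals are 95% intervals from the same fit. The fit was also run on simulated signals with independent noise for each gene and far fewer changed genes than were called here. The simulation held no brighter array and no difference in RNA integrity between groups, so it does not bear on either. Named were all 10 S100 genes, per list up to 4 called genes with the smallest p, and some genes fixed by name. SUGT1, IVL, LCE1E, RPTN, S100A7A, S100Z and the marker genes were named in addition, after their values were seen. The members, lists and scaling were chosen with earlier results of these data known.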

Additional observations from a re-analysis of the deposited data

How the results depend on the processing

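S100A4 and S100A16 were called lower under all 18 alternatives tried. The 2 higher S100 calls became 0 with signals as deposited and 1 with median centring, a common trimmed mean, no filter, averaged probe sets, no intensity trend, per-gene variances, the replicate block, or signals as deposited without control decoy replicate 3 (an alternative chosen after seeing the data), and were 1 to 2 when 1 array was left out. The 3 lower calls became 2 in some of these settings. S100A10 passed as lower with averaged probe sets (-0.18, adjusted p = 0.0491). Of the 14 S100 probe sets, the dimmer 1 of S100A8 did not pass the filter and was not tested. Among the others 2 were higher and 4 lower. The higher calls became 0 with signals as deposited and 1 with centring, a common trimmed mean, offset 1, no filter, no trend, per-gene variances and the replicate block (1 to 2 with 1 array left out). Lower calls became 2 with centring, no filter and per-gene variances and 1 with no trend (2 to 4 with 1 array left out). Over all genes, 2299 higher calls became 1094 as deposited, 1479 with the mean of probe sets and 1453 with per-gene variances (1873 to 2158 with 1 array left out), and 2398 lower calls became 1566 with the mean of probe sets and 1377 with per-gene variances (1831 to 2149).

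Signs turned, none of them past the threshold, for S100A6 (-0.023 as deposited), S100A8 (-0.072 as deposited, -0.044 with averaged probe sets, -0.080 to 0.27 with 1 array left out), S100A10 (0.028 centred, -0.042 to 0.0051 with 1 array left out), S100A11 (-0.13 as deposited, -0.018 with a common trimmed mean, -0.091 as deposited without control decoy replicate 3, -0.013 to 0.097 with 1 array left out), the dim S100A13 probe set (-0.51 to 0.021 with 1 array left out), ANXA11 (-0.20 to 0.0054) and MYH9 (-0.0082 to 0.11, and -0.026 as deposited) likewise, AHNAK (-0.062 as deposited, -0.00047 as deposited without control decoy replicate 3), and, with averaged probe sets, FGF1 (-0.082), CHP1 (0.091), INTS3 (0.38) and SUGT1 (-0.090). The cause was not tested. With the replicate number as a block, S100A6 no longer passed (adjusted p = 0.0531) and no other S100 gene changed its call. Same-numbered arrays deviated from their group means with correlations of 0.03, -0.03 and -0.01, so no shared deviation was seen after quantile normalisation. These correlations cannot show whether same-numbered arrays were cultured or processed together. With signals as deposited, higher calls fell to 0 for annexins, for plasminogen activation and for other EF-hand genes, to 1 for receptors and to 1 for other partners. With centring, lower calls became 1 for annexins and 1 for receptors, and plasminogen activation had 2 higher, as with a common trimmed mean, which left 1 annexin higher. Dim genes such as S100A9, S100A8 and S100A1 have wide intervals.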

Other observations

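Calcium-binding EF-hand genes outside the S100 family had more lower than higher calls with the miR-10b decoy: 9 of 24 tested were lower and 3 higher, beside 17.3% lower and 16.6% higher among all genes, with a median difference of -0.17. EFHD2, a cytoskeletal calcium sensor, read 604, 565 and 552 with the miR-10b decoy and 852, 834 and 838 with the control decoy (difference -0.55, SE 0.07, limma adjusted p = 7.8e-05). The centrosome protein CETN2 read 1662, 1690 and 1667 with the miR-10b decoy and 2094, 2081 and 2082 with the control decoy (difference -0.32, SE 0.05, adjusted p = 3.6e-04). Both were called under all 18 alternatives, EFHD2 with a smaller difference of -0.26 for the mean of its probe sets. PEF1, a penta-EF-hand protein of vesicle transport, was higher at 0.33 (SE 0.06), a call lost with signals as deposited (adjusted p = 0.179, in a range of 4.7e-04 to 0.179), and CHP1, a partner of sodium-proton exchangers, was lower at -0.27 (SE 0.05), but the mean of its probe sets gave 0.09 (adjusted p = 0.505). The lower calls of the list numbered 8 with signals as deposited, 7 with centring and 11 with a common trimmed mean.

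Of 7 S100 fused-type genes, which join an S100 domain to long repeats and belong to squamous epithelia, 5 were on the array and 1 passed the filter. That gene, RPTN, had 14.1 ± 0.475 with the miR-10b decoy and 22.6 ± 2.88 with the control decoy (SD, n = 3 each) and did not pass (adjusted p = 0.235). All 3 miR-10b decoy arrays were under the filter level, so RPTN entered the test through the control decoy arrays only. Of 8 glial markers, 5 were tested and NES, a neural progenitor filament, was lower at -0.38 (adjusted p = 0.00776, and 0.271 with the mean of its probe sets). Of 4 endothelial markers, PECAM1 and TEK were lower, at -0.40 and -0.55 (adjusted p = 0.363 and 0.427 with the mean of their probe sets), while CDH5 and VWF were under the filter level on all 6 arrays. Among all genes 17.3% were lower. The TEK call also ended without control decoy replicate 1 (0.0763) or 2 (0.0601) or miR-10b decoy replicate 3 (0.0736), and that of PECAM1 without control decoy replicate 2 (0.0513).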
